A study of Mus musculus with 22 samples.

Results

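RNA sequencing of dorsal root ganglia (DRG), the clusters of sensory neurons and glia beside the spinal cord, was used here to compare mice labelled Postn knock out with wild-type mice when both had received imiquimod (IMQ). The knockout IMQ group (KO IMQ) and the wild-type IMQ group (WT IMQ) held 2 libraries each, of T10-L5 ganglia taken after 5 days of treatment. They are 4 of the 22 libraries of the series. The genes compared were all expressed autosomal genes, 16600 of the 55487 genes listed in the ganglion count table and of the 17197 that passed the filter on low counts on any chromosome. A further 6 ganglion libraries from vehicle-treated mice, 3 KO and 3 WT, entered the fit for the estimate of spread and for nothing else. The labels give the genotypes as WT and Postn knock out, with no allele, strain, sex, age or number of animals per library. They also do not say whether the replicates are separate animals, so the errors below measure the spread between libraries, which may be technical.

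Periostin, the product of Postn, is a secreted matricellular protein made mainly by fibroblasts and related matrix-producing cells. It binds integrins on neighbouring cells and helps collagen fibrils to assemble and crosslink, and in inflamed skin it has been tied to itch through receptors on sensory neurons. Imiquimod is an agonist of the innate RNA sensor TLR7 that is widely used in mice to produce psoriasis-like skin inflammation, and the sensory neurons that serve the skin have their cell bodies in these ganglia.

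Total counts were 16769029 and 16666489 in KO IMQ and 19645577 and 16835790 in WT IMQ. Levels below are CPM, the counts scaled to a common library size after TMM normalization, and differences are log2 fold changes of KO IMQ over WT IMQ with the standard error (SE) of the edgeR quasi-likelihood fit. The labelled tissue was checked by its neurons: all 21 autosomal pan-neuronal genes that were looked for passed the filter, and they summed to 22100 and 20400 CPM in KO IMQ against 22300 and 23200 CPM in WT IMQ. No library repeated another, and 2 of the 4 stood apart. KO IMQ 2 differed from KO IMQ 1 by 2-fold or more at 219 of 14477 genes (1.51%), whereas KO IMQ 1 differed from WT IMQ 1 at 105 genes (0.725%) and from WT IMQ 2 at 116 (0.801%). Its counts also leaned towards long genes, by 0.138 log2 CPM per doubling of gene length, against −0.0149 to 0.00639 in the other 3. WT IMQ 2 had 0.176 CPM of Xist, the transcript that silences an X chromosome in females, where the remaining IMQ libraries had 217 to 234 CPM. Y-linked genes came to 139 CPM in WT IMQ 2, so the WT IMQ group mixes the sexes and the KO IMQ group does not. Below, the left-out range of a value is its lowest and highest with 1 of the 4 IMQ libraries left out.

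Postn was the targeted gene, and it was the only autosomal gene that passed the test. It had 7.43 and 4.38 CPM in KO IMQ, against 49.7 and 43.3 CPM in WT IMQ (128 and 74 counts against 979 and 739). Both KO IMQ libraries lay far below both WT IMQ libraries, at 16.0% and 9.42% of the WT IMQ mean. The fold change was −2.98 ± 0.26 on the log2 scale (95% interval −3.56 to −2.39), a 7.87-fold lower level, with an edgeR adjusted p of 0.0118. The direction was the same in all 19 alternatives, from −3.41 to −2.65, and the gene was called in 15 of them (adjusted p from 6.13e-24 to 0.127). With a library left out, the call was lost without KO IMQ 2 (adjusted p = 0.127), WT IMQ 1 (0.0874), WT IMQ 2 (0.0976) or WT vehicle 3 (0.0533). The remaining Postn reads do not tell whether a transcript that can be translated was present.

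Across the genome few differences between the KO IMQ and WT IMQ ganglia were detected. Of 16600 autosomal genes, 1 was called by edgeR (0.00602%), and the second smallest adjusted p was 0.997. At an unadjusted p below 0.05 there were 309 genes (1.86%), 154 higher and 155 lower in KO IMQ, where 5% would be reached if no gene differed. The fit thus gave fewer small p than that, and its lack of calls does not show that the groups were alike. Both KO IMQ libraries lay above both WT IMQ libraries at 2662 genes (16.0%) and below them at 2831 (17.1%). With 2 libraries against 2, an exact two-sided permutation test of a single gene cannot go below p = 0.333, so no such test is given.

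The intervals bound how large most differences can be, given the spread between these libraries. The median log2 fold change over autosomal genes was −0.003, and 5% of genes lay below −0.47 and 5% above 0.40. Among the 14706 genes with a mean of at least 1 CPM in either group, 91 differed by 2-fold or more, 24 higher and 67 lower in KO IMQ, and at 62 of these the groups did not overlap (17 higher, 45 lower). Groups did not overlap at 4927 of all 14706 (33.5%), and a choice by fold change favours separate groups. The 95% interval of the fold change stayed within 2-fold in both directions for 12364 of the 14706 (84.1%). A 2-fold change is thus outside the interval for most expressed genes, at a median SE of 0.20. The adjusted test was less sensitive than this. Of the 91 genes that differed by 2-fold or more it called Postn alone, and it missed Saa3 at −2.01.

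**Figure D1:**
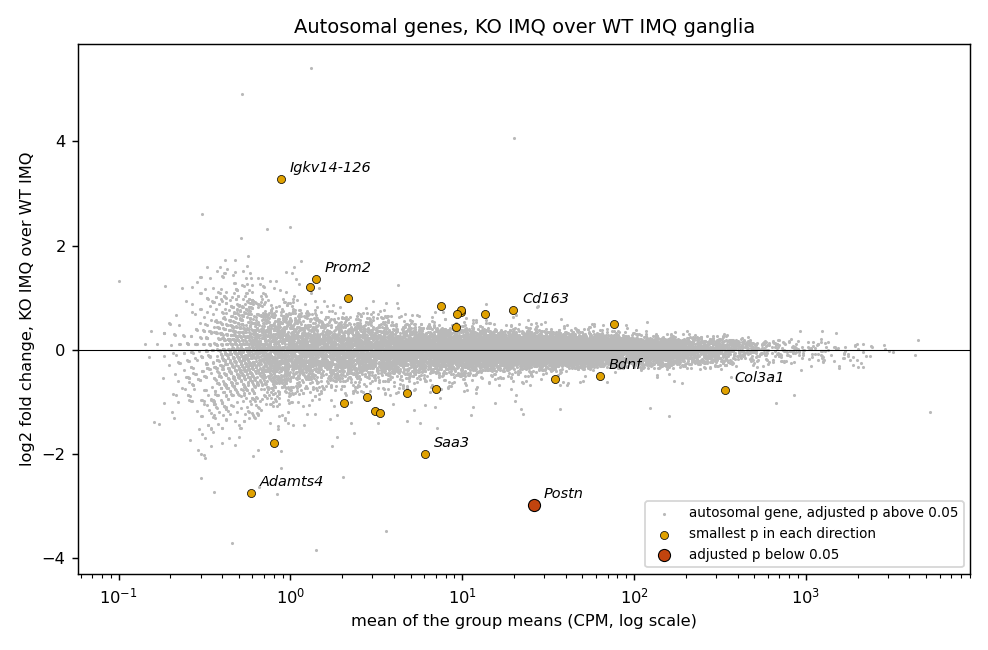
Log2 fold change of KO IMQ over WT IMQ (vertical axis) against the mean of the group means in CPM (log scale) for the autosomal genes tested, each point being a gene. Postn at −2.98 is the only gene with an edgeR adjusted p below 0.05, and the genes with the smallest p in each direction lie at the edge of the cloud of genes of like level, as Cd163 at 0.76, or beyond it, as Saa3 at −2.01.

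The genes beside Postn on chromosome 3 were examined next. None of the 5 expressed genes on either side had an unadjusted p below 0.05, and their fold changes ran from −0.39 to 0.49. Trpc4, a cation channel gene and the nearest expressed neighbour on one side, had 5.69 and 6.04 CPM in KO IMQ against 5.74 and 4.86 CPM in WT IMQ (0.14 ± 0.20). On the other side Supt20, a gene of the SAGA transcription coactivator complex, had 46.9 and 52.7 CPM in KO IMQ against 44.7 and 46.5 CPM in WT IMQ (0.13 ± 0.20). The groups overlapped for Trpc4 and stood slightly apart for Supt20. The value farthest from 0 among them, 0.49 ± 0.32 for Frem2, a basement membrane protein gene, was within 2 SE of 0. Left-out ranges were 0.03 to 0.27 for Trpc4, 0.04 to 0.21 for Supt20 and 0.32 to 0.66 for Frem2. Chromosome 3 held 18 genes with an unadjusted p below 0.05 out of 876 (2.05%), within the range of the 19 autosomes from 1.19% on chromosome 4 to 2.78% on chromosome 12.

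**Figure D2:**
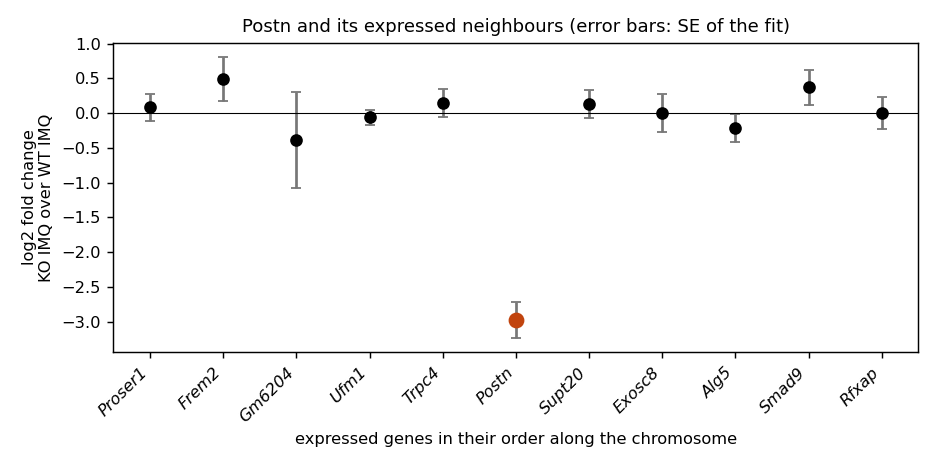
Log2 fold change of KO IMQ over WT IMQ for Postn (red) and the 5 expressed genes on either side (black) in their order along chromosome 3, with error bars of 1 SE. Postn lies at −2.98 and its 10 neighbours between −0.39 and 0.49.

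Gene lists for the matrix, inflammation, neurons, glia and other cell types were then described, 45 in all. Apart from Postn no member of any list was called, so a list is given by its median, by its members at an unadjusted p below 0.05, and by its members whose groups did not overlap, to be read against the 1.86%, 16.0% and 17.1% of all autosomal genes above. In brackets from here on, above and below give the number of members with both KO IMQ libraries above or below both WT IMQ libraries. Members of a list can move together within a library, so these counts are not independent observations. The share over all genes is given for description and tests no list. In whole ganglia, fewer cells of a type and less RNA per cell cannot be told apart. The median of the list stayed within the spread between replicate libraries for 29 of the 45 lists. Some genes named below were chosen for a small p and for groups that do not overlap. For these, separate groups and close replicates follow from the choice and add no support.

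Fibroblast and matrix genes had a median of −0.30 over 31 tested members, with 26 of them negative. In 6 members the unadjusted p was below 0.05, all lower in KO IMQ, and 11 (35.5%) lay below both WT IMQ libraries and 1 above. Col3a1, the type III collagen gene, had 276 and 226 CPM in KO IMQ against 392 and 464 CPM in WT IMQ (−0.77 ± 0.21, 95% interval −1.24 to −0.30). Its groups stood well apart, and it kept −0.64 without WT IMQ 2 and −0.63 without KO IMQ 2. The choice of Col3a1 by a small p and separate groups favours both. Fbn1, which encodes the microfibril protein fibrillin-1, had 42.5 and 37.2 CPM in KO IMQ against 64.1 and 57.6 CPM in WT IMQ (−0.61 ± 0.24). Here too both KO IMQ libraries were the lower ones, with −0.69 without WT IMQ 2. The next 2 members had smaller differences without WT IMQ 2. Col1a1, a chain of type I collagen, had 158 and 114 CPM in KO IMQ against 160 and 254 CPM in WT IMQ (−0.60 ± 0.24, left-out range −0.90 to −0.23, with −0.23 without WT IMQ 2). Lox, the collagen crosslinking enzyme lysyl oxidase, had 33.6 and 29.2 CPM in KO IMQ against 40 and 60.4 CPM in WT IMQ (−0.68 ± 0.27, and −0.35 without WT IMQ 2). Col1a1 in KO IMQ 1 nearly met its level in WT IMQ 1, and in both genes WT IMQ 2 was well above the rest. The list median followed the same library, at −0.11 without WT IMQ 2 and −0.48 without WT IMQ 1. Meningeal genes, which mark the membranes around the spinal cord and nerve roots, moved with it: the 11 tested summed to 385 and 294 CPM in KO IMQ and to 279 and 711 CPM in WT IMQ, with a median of −0.49 (left-out range −0.96 to 0.11, 0 above and 1 below). Their part in the matrix result was not tested beyond leaving out that library. WT IMQ 2 is also the IMQ library with Y-linked counts (139 CPM), and a part of sex was not tested. Aldh1a2, a retinoic acid synthesis enzyme of meningeal fibroblasts, had 6.21 and 2.55 CPM in KO IMQ against 3.51 and 15.6 CPM in WT IMQ, a difference of −1.11 ± 0.72 that turned to 0.32 without WT IMQ 2.

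Genes whose products act together with periostin were described next. Of 22 tested partners and matricellular proteins, Postn included, 1 other had an unadjusted p below 0.05, and the median was −0.11 (left-out range −0.33 to 0.11, 2 above and 6 below). That gene was Spon2, a secreted matrix protein of the F-spondin family, with 4.29 and 3.37 CPM in KO IMQ against 5.18 and 7.97 CPM in WT IMQ (−0.77 ± 0.32, left-out range −1.05 to −0.43). The groups did not overlap, and the gap to WT IMQ 1 was small. Smoc2, a matricellular calcium-binding protein gene, had 73.2 and 72.2 CPM in KO IMQ against 75.5 and 108 CPM in WT IMQ (−0.33 ± 0.17, left-out range −0.57 to −0.06), with WT IMQ 2 standing alone. The 19 integrin subunits, which include those that bind periostin, had a median of −0.05 (left-out range −0.17 to 0.09, 4 above and 4 below) and fold changes from −0.43 to 0.34. Itgb4, the laminin-binding subunit of hemidesmosomes and Schwann cells, had 78 and 77.7 CPM in KO IMQ against 51.8 and 71.6 CPM in WT IMQ (0.34 ± 0.16, left-out range 0.12 to 0.59). For Itga7, another laminin receptor subunit, the values were 161 and 177 CPM in KO IMQ against 192 and 206 CPM in WT IMQ (−0.24 ± 0.12). Neither interval excluded 0. TGF-β signalling genes, which act upstream of Postn in fibroblasts, had a median of 0.04 over 19 members (left-out range −0.13 to 0.20, 1 above and 0 below), and none had an unadjusted p below 0.05.

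A few matrix-related genes outside these lists were among those with the smallest p. Adamts4, a metalloproteinase that cleaves the proteoglycan aggrecan, had 2 and 3 counts in KO IMQ against 21 and 17 counts in WT IMQ, or 0.116 and 0.178 CPM against 1.07 and 0.996 CPM. Its fold change of −2.76 ± 0.50 (95% interval −3.89 to −1.64) rests on these few counts. Sdc1, the cell-surface proteoglycan syndecan-1, had 27.3 and 28.5 CPM in KO IMQ against 42.5 and 39.8 CPM in WT IMQ (−0.56 ± 0.13). C1qtnf2, a secreted protein of the C1q and TNF-related family, had 1.97 and 2.01 CPM in KO IMQ against 3.71 and 5.57 CPM in WT IMQ (−1.21 ± 0.33). In all 3 the groups did not overlap, which the choice of such genes requires. Their replicates were close in KO IMQ, which a choice by small p favours. None passed the adjusted test.

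Among inflammatory genes the largest difference was that of Saa3, an acute phase protein gene induced by IL-1 and IL-6 signalling. It had 1.97 and 2.84 CPM in KO IMQ, against 8.48 and 10.9 CPM in WT IMQ (34 and 48 counts against 167 and 186). Both KO IMQ libraries were below both WT IMQ libraries by more than the replicates differed. Its fold change was −2.01 ± 0.33 (95% interval −2.75 to −1.27) and missed the threshold in edgeR over all 10 ganglion libraries. The call depended on the method: Saa3 passed with DESeq2 (adjusted p = 0.00263), with no filter on low counts (0.00796) and in a fit of the 4 IMQ libraries alone (0.00758), with fold changes from −2.29 to −1.77 and adjusted p from 0.00263 to 1 over all alternatives. The acute phase and STAT3 list holds Saa3. Without Saa3 its 19 other tested members had a median of −0.35, with 12 negative and 7 positive, 9 below both WT IMQ libraries and 3 above, and 2 at an unadjusted p below 0.05, both lower in KO IMQ. The summed level of the whole list did not separate the groups, at 1950 and 2190 CPM in KO IMQ against 2020 CPM in each WT IMQ library. Its median with Saa3 was −0.37, from −0.43 to −0.30 over the alternatives. Serpina3n, an acute phase serine protease inhibitor, had 287 and 269 CPM in KO IMQ against 376 and 350 CPM in WT IMQ (−0.38 ± 0.16). Junb, an AP-1 transcription factor gene, had 10.6 and 12 CPM in KO IMQ against 14.1 and 15.6 CPM in WT IMQ (−0.40 ± 0.16). Cebpb, the transcription factor C/EBPβ, had 1.86 and 1.12 CPM in KO IMQ against 2.44 and 2.93 CPM in WT IMQ (−0.84 ± 0.40, left-out range −1.25 to −0.53). Groups did not overlap in these 3, and their differences were smaller than that of Saa3.

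Cytokine, chemokine and NF-κB genes showed no common direction. Over 21 tested members the median was 0.05 (left-out range −0.26 to 0.24, 5 above and 3 below). Ccl2, the monocyte chemoattractant, had 3.6 and 2.84 CPM in KO IMQ against 5.28 and 5.51 CPM in WT IMQ (−0.74 ± 0.31). Il1b, the gene of the cytokine IL-1β, had 2.38 and 0.71 CPM in KO IMQ against 0.508 and 0.703 CPM in WT IMQ (1.35 ± 0.55). KO IMQ 1 alone set that difference, which was 0.24 without it. Il10, an anti-inflammatory cytokine gene, had 1.1 and 0.592 CPM in KO IMQ against 0.356 and 0.352 CPM in WT IMQ (1.25 ± 0.59, left-out range 0.73 to 1.62), from at most 19 counts in a library. Its 95% interval, −0.07 to 2.56, included 0.

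Interferon response genes leaned towards higher levels in KO IMQ. Of 43 tested, 37 had a positive fold change, 20 (46.5%) lay above both WT IMQ libraries and 2 below, and 4 had an unadjusted p below 0.05, all higher in KO IMQ. Their median was 0.23, from 0.17 to 0.28 over the alternatives, and they summed to 1190 and 1130 CPM in KO IMQ against 1020 and 1070 CPM in WT IMQ. Rsad2, which encodes the antiviral enzyme viperin, had 12 and 12.9 CPM in KO IMQ against 6.66 and 7.91 CPM in WT IMQ (0.77 ± 0.20, 95% interval 0.32 to 1.22). Ifit3b, an antiviral RNA-binding protein gene with a near-identical copy, Ifit3, had 11 and 13.5 CPM in KO IMQ against 6.91 and 7.91 CPM in WT IMQ (0.73 ± 0.17). Reads of Ifit3b are uncertain to the extent that the authors' counting split them with that copy. Oas2, a synthetase that activates antiviral RNA decay, had 6.03 and 4.74 CPM in KO IMQ against 3.45 and 3.46 CPM in WT IMQ (0.64 ± 0.24). Rtp4, an interferon-induced receptor transporter gene, had 20.9 and 13.3 CPM in KO IMQ against 12.1 and 11.8 CPM in WT IMQ (0.52 ± 0.20, left-out range 0.15 to 0.81). The groups did not overlap in these 4 genes, with Rtp4 resting mostly on KO IMQ 1 (0.15 without it). None passed the adjusted test.

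**Figure D3:**
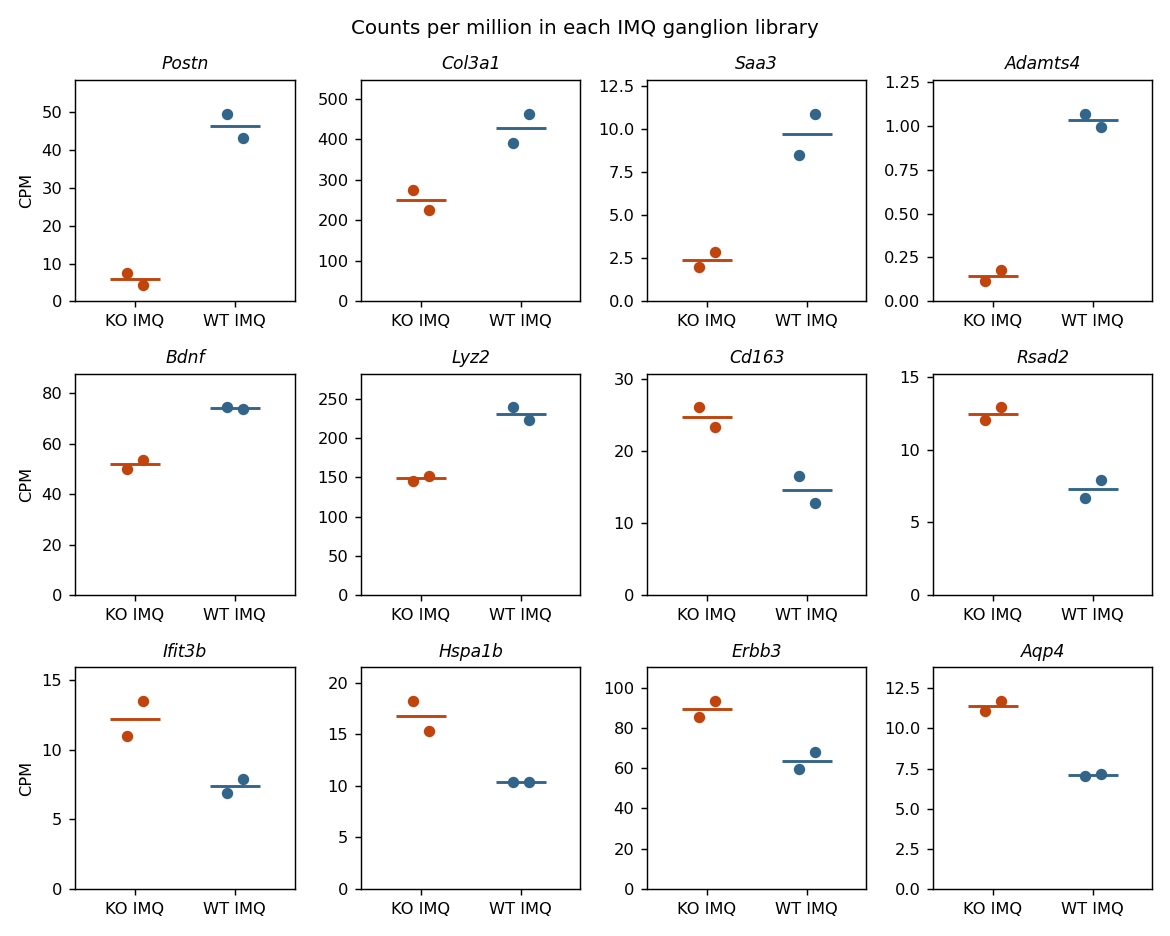
CPM in each library (points) and the group mean (bar) for 12 genes, KO IMQ (red) left of WT IMQ (blue), on axes that start at 0. Postn, Col3a1, Saa3, Adamts4, Bdnf and Lyz2 are lower and Cd163, Rsad2, Ifit3b, Hspa1b, Erbb3 and Aqp4 higher in KO IMQ. In all 12 the points of the groups do not overlap, but most were chosen from genes with a small p and separate groups. Groups did not overlap at 33.1% of all autosomal genes.

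Macrophage genes had a median of −0.23 over 28 tested members, of which 24 were negative. Below both WT IMQ libraries lay 14 and above them 2. Their sum was 945 and 841 CPM in KO IMQ against 1120 and 1050 CPM in WT IMQ, and the median had a left-out range of −0.36 to −0.11, with −0.11 without KO IMQ 2 and −0.12 with an offset for gene length. Lyz2, the lysozyme gene of myeloid cells, had 145 and 152 CPM in KO IMQ against 239 and 223 CPM in WT IMQ (−0.64 ± 0.23). Fcgr1, a high-affinity Fc receptor gene, had 7.72 and 5.56 CPM in KO IMQ against 8.99 and 9.02 CPM in WT IMQ (−0.44 ± 0.24, left-out range −0.69 to −0.22). Itgam, the CD11b integrin gene of myeloid cells, had 15.8 and 13.9 CPM in KO IMQ against 22.3 and 17.5 CPM in WT IMQ (−0.42 ± 0.26, left-out range −0.58 to −0.24). Lyz2 separated the groups most widely of the 3. Cd163, the haemoglobin scavenger receptor of resident macrophages, had the opposite sign, with 26.1 and 23.4 CPM in KO IMQ against 16.5 and 12.8 CPM in WT IMQ (0.76 ± 0.17, 95% interval 0.39 to 1.13). Its fold change kept 0.59 to 0.96 with any IMQ library left out, which its choice by a small p and separate groups favours. Genes of alternatively activated macrophages had a median of −0.25 over 11 tested (left-out range −0.20 to −0.04, 1 above and 1 below), with 2 positive and 9 negative. Leaving out either WT IMQ library brought it to −0.05 or −0.04. Mgl2, a lectin gene of such cells and 1 of the 2 positive members, had 1.45 and 0.77 CPM in KO IMQ against 0.457 and 0.879 CPM in WT IMQ (0.75 ± 0.40, left-out range 0.23 to 1.27), and the groups overlapped. Chil3, a negative member, had 12.6 and 4.68 CPM in KO IMQ against 18.3 and 12.6 CPM in WT IMQ (−0.84 ± 0.80, left-out range −1.73 to −0.30). For Chil3, KO IMQ 1 nearly met WT IMQ 2.

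Neutrophil genes gave the lowest median of the immune lists, −0.93 over 16 tested members, with 11 (68.8%) below both WT IMQ libraries and none above. Much of this was KO IMQ 2. The members summed to 119 and 49.2 CPM in KO IMQ against 185 and 149 CPM in WT IMQ, and the median was −0.51 without KO IMQ 2 and −1.74 without KO IMQ 1. Ngp, a granule protein gene, had 18.6 and 8.82 CPM in KO IMQ against 35.1 and 25.9 CPM in WT IMQ (−1.15 ± 0.84, left-out range −1.79 to −0.72). Ltf, the granule protein lactoferrin, had 9.75 and 4.85 CPM in KO IMQ against 16.3 and 15.2 CPM in WT IMQ (−1.11 ± 0.69, left-out range −1.70 to −0.69). KO IMQ 2 was the lowest library for both, and both intervals included 0. Erythroid genes, which follow the blood held in the tissue, had a median of −0.41 over 9 tested members (left-out range −0.61 to −0.06, 0 above and 4 below), which was −0.06 without WT IMQ 1 and −0.14 without KO IMQ 2, with the globin gene Hbb-bs at 16.9 and 11.5 CPM in KO IMQ against 29.2 and 18.9 CPM in WT IMQ. The globin genes are near-identical copies of each other, so reads may be split among them. The part of blood content in the neutrophil values was not tested.

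The other immune lists had medians closer to 0, most of which turned sign with a library left out. Complement genes had a median of −0.21 over 16 tested (left-out range −0.26 to −0.12, 3 above and 6 below), and antigen presentation genes had −0.11 over 20 (left-out range −0.26 to 0.06, 1 above and 5 below). B cell and plasma cell genes stood at 0.03 over 17 (left-out range −0.57 to 0.36, 0 above and 2 below). T and NK cell genes stood at −0.01 over 11 (left-out range −0.14 to 0.20, 0 above and 1 below) and mast cell genes at 0.03 over 9 (left-out range −0.30 to 0.30, 1 above and 0 below). Bank1, a B cell scaffold protein gene, had 3.54 and 3.49 CPM in KO IMQ against 5.23 and 5.16 CPM in WT IMQ (−0.56 ± 0.20). Its replicates were close to each other within each group. Igkv14-126, an antibody light chain segment, had 23 and 32 counts in KO IMQ against 6 and 0 counts in WT IMQ. Such segments share sequence and follow single B cell clones, so its fold change of 3.27 ± 0.81 is uncertain. Leaving out WT IMQ 2 gave 2.38, while leaving out WT IMQ 1 leaves only a library at 0 counts on the WT side.

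**Figure D4:**
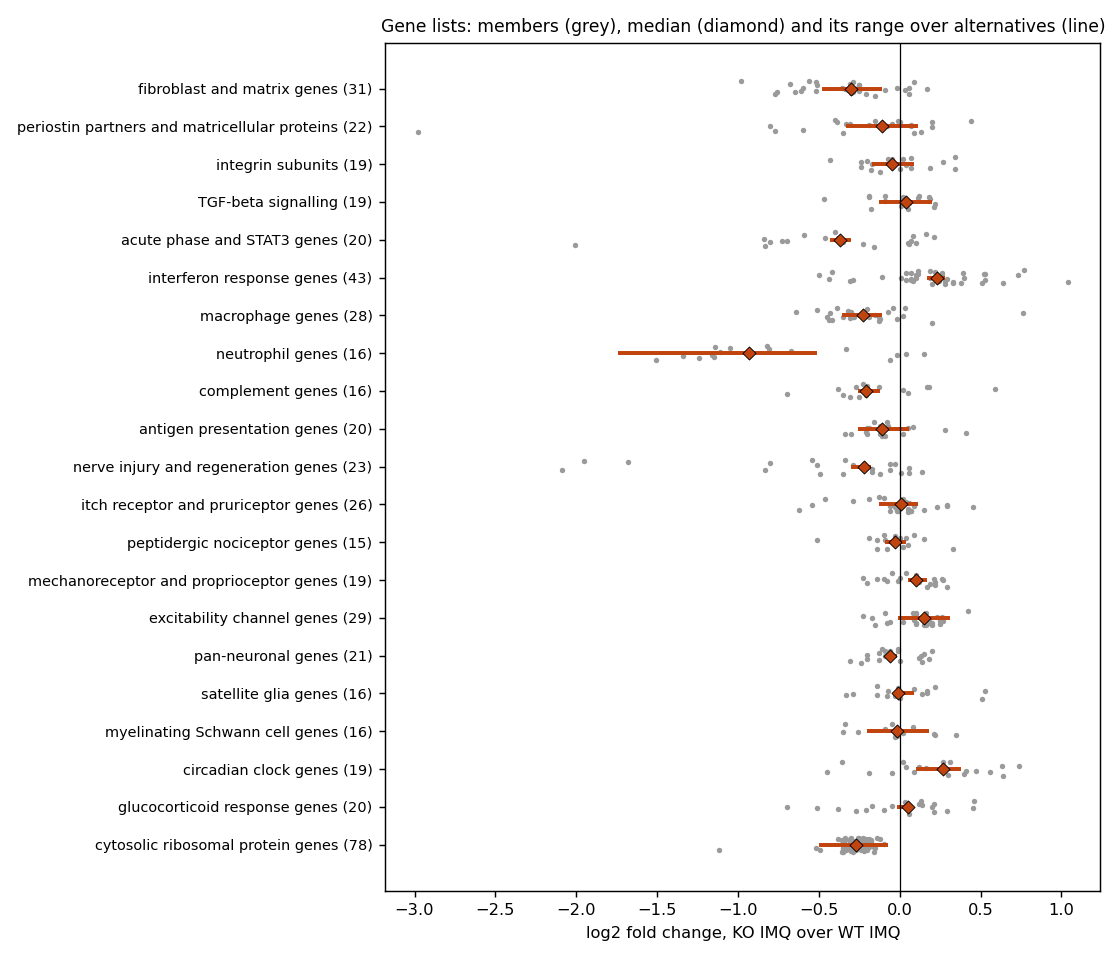
Log2 fold change of KO IMQ over WT IMQ for the tested members (grey points) of 21 gene lists, with the list median (diamond) and the range of that median over 19 alternatives (line); the number of tested members follows each name. The interferon and clock medians keep to the right of 0 and the fibroblast, acute phase, macrophage, neutrophil, complement, nerve injury and ribosomal medians to the left, while those of most neuronal and glial lists lie near 0.

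Neuronal identity genes were close to 0. The pan-neuronal list had a median of −0.06 over 21 members, from −0.08 to −0.02 over the alternatives, with 5 members above and 5 below both WT IMQ libraries. Tubb3, neuronal β-tubulin, had 1740 and 1630 CPM in KO IMQ against 1890 and 1990 CPM in WT IMQ (−0.20 ± 0.11). Prph, the intermediate filament peripherin of small sensory neurons, had 1490 and 1290 CPM in KO IMQ against 1770 and 1690 CPM in WT IMQ (−0.31 ± 0.22). Both were lower in each KO IMQ library, by little, and neither interval excluded 0. By neuron class, the median was −0.03 for 15 peptidergic nociceptor genes (left-out range −0.09 to 0.04, 1 above and 2 below) and 0.05 for 14 non-peptidergic nociceptor genes (left-out range −0.10 to 0.17, 1 above and 0 below). It was −0.02 for 7 C-fibre low-threshold mechanoreceptor genes (left-out range −0.12 to 0.16, 0 above and 0 below) and 0.10 for 19 genes of other mechanoreceptors and proprioceptors (left-out range 0.05 to 0.17, 7 above and 1 below). Calb1, a calcium-binding protein gene of the last list, had 71 and 68.8 CPM in KO IMQ against 58.9 and 62.1 CPM in WT IMQ (0.21 ± 0.11).

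Itch receptors and the markers of itch-sensing neurons also had a median near 0. It was 0.01 over 26 tested members, with a left-out range of −0.13 to 0.11. Of these members 13 were positive and 13 negative, with fold changes from −0.62 to 0.45. There were 2 above and 5 below both WT IMQ libraries, and none at an unadjusted p below 0.05. Nppb, the natriuretic peptide that itch neurons release in the spinal cord, had 14.6 and 11.2 CPM in KO IMQ against 20.6 and 14.8 CPM in WT IMQ (−0.46 ± 0.34, left-out range −0.68 to −0.19). Nts, the neuropeptide neurotensin, had 17.8 and 13.3 CPM in KO IMQ against 21.7 and 23.6 CPM in WT IMQ (−0.54 ± 0.30, left-out range −0.76 to −0.35). F2rl1, the protease-activated receptor PAR2, had 0.87 and 1.01 CPM in KO IMQ against 1.42 and 1.47 CPM in WT IMQ (−0.62 ± 0.45). All 3 were lower in each KO IMQ library, with intervals that included 0. They come from the 13 negative members and do not stand for the evenly divided list. Receptors for itch and type 2 cytokines had a median of 0.10 over 17 members (left-out range −0.01 to 0.19, 5 above and 2 below), led by Il1rl1, the IL-33 receptor gene, with 1.1 and 1.48 CPM in KO IMQ against 0.914 and 0.996 CPM in WT IMQ (0.43 ± 0.28, left-out range 0.21 to 0.63). Ion channels of excitability had 23 of 29 members positive, 7 above and 1 below both WT IMQ libraries and a median of 0.15. That lean went with KO IMQ 2, the library with the trend towards long genes: the median was −0.01 without it, 0.31 without KO IMQ 1 and 0.07 with the length offset. Kcna2, a voltage-gated potassium channel gene, had 360 and 386 CPM in KO IMQ against 336 and 332 CPM in WT IMQ (0.16 ± 0.11).

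Nerve injury and regeneration genes leaned towards lower levels in KO IMQ. Of 23 tested, 19 were negative, 12 (52.2%) lay below both WT IMQ libraries and 1 above, and the median was −0.22, from −0.30 to −0.18 over the alternatives. The smallest p belonged to Bdnf, a neurotrophin gene of nociceptors that inflammation and injury induce. It had 50 and 53.7 CPM in KO IMQ against 74.4 and 73.8 CPM in WT IMQ. The replicates of each group were nearly equal and the groups did not overlap, both of which its choice by a small p favours. Its fold change was −0.51 ± 0.13 (95% interval −0.81 to −0.22). With any IMQ library left out the value kept within −0.57 to −0.46. Close replicates bring this about, so it adds no support. Sprr1a, a regeneration-associated gene of injured axons, had 0.406 and 1.36 CPM in KO IMQ against 1.83 and 3.87 CPM in WT IMQ (−1.68 ± 0.72, left-out range −2.78 to −1.05). Cckbr, a cholecystokinin receptor gene that appears after nerve injury, had 3 and 1 counts in KO IMQ against 9 and 10 counts in WT IMQ (−2.09 ± 0.88), too few to weigh much. Atf3, the transcription factor that marks injured sensory neurons, had 11.1 and 11.7 CPM in KO IMQ against 13.4 and 15.4 CPM in WT IMQ (−0.34 ± 0.21). None of these 4 passed the adjusted test. Immediate early genes, which follow recent activity and handling, had a median of 0.06 over 21 members (left-out range −0.18 to 0.15, 2 above and 5 below).

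Glial lists were close to 0 with single genes that stood apart. Myelinating Schwann cell genes had a median of −0.02 over 16 members (left-out range −0.20 to 0.18, 0 above and 1 below), with 6 positive and 10 negative. Non-myelinating and repair Schwann cell genes had 0.05 over 12 (left-out range −0.02 to 0.24, 2 above and 1 below), with 7 positive and 5 negative. Satellite glia genes had −0.01 over 16 (left-out range −0.03 to 0.09, 6 above and 1 below), with 7 positive and 9 negative. Erbb3, the neuregulin receptor by which axons direct Schwann cells, had 85.4 and 93.4 CPM in KO IMQ against 59.5 and 67.9 CPM in WT IMQ (0.49 ± 0.14, 95% interval 0.17 to 0.81). Cdh19, a cadherin gene of satellite glia and Schwann cells, had 131 and 150 CPM in KO IMQ against 94.2 and 99.6 CPM in WT IMQ (0.53 ± 0.28). Aqp4, a water channel gene best known from astrocytes, had 11.1 and 11.7 CPM in KO IMQ against 7.06 and 7.15 CPM in WT IMQ (0.68 ± 0.20). Slc1a2, a glutamate transporter gene of glia, had 5.4 and 6.45 CPM in KO IMQ against 4.42 and 3.87 CPM in WT IMQ (0.51 ± 0.25). The groups did not overlap in these 4 genes, and Aqp4 had the tightest replicates. Erbb3 and Aqp4 were chosen for separate groups and a small p. Other glial genes were lower in both KO IMQ libraries. Pmp22, of the myelinating list, had 1430 and 1320 CPM in KO IMQ against 1610 and 1890 CPM in WT IMQ (−0.35 ± 0.27). Apoe, of the satellite glia list, had 2170 and 1640 CPM in KO IMQ against 2390 and 2410 CPM in WT IMQ (−0.33 ± 0.30). The 95% intervals of Pmp22 and Apoe included 0. Aqp4 also stood in the list of central nervous system glia, markers of spinal cord tissue. That list had a median of 0.03 over 10 tested members (left-out range −0.05 to 0.25, 4 above and 2 below), with 2 at an unadjusted p below 0.05 higher and 1 lower in KO IMQ, and it summed to 164 and 154 CPM in KO IMQ against 150 and 161 CPM in WT IMQ. Cholesterol synthesis genes had a median of −0.05 over 21 members (left-out range −0.22 to 0.03, 0 above and 7 below, or 33.3%). Of these members 19 were negative and 2 positive, with 1 at an unadjusted p below 0.05, lower in KO IMQ.

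**Figure D5:**
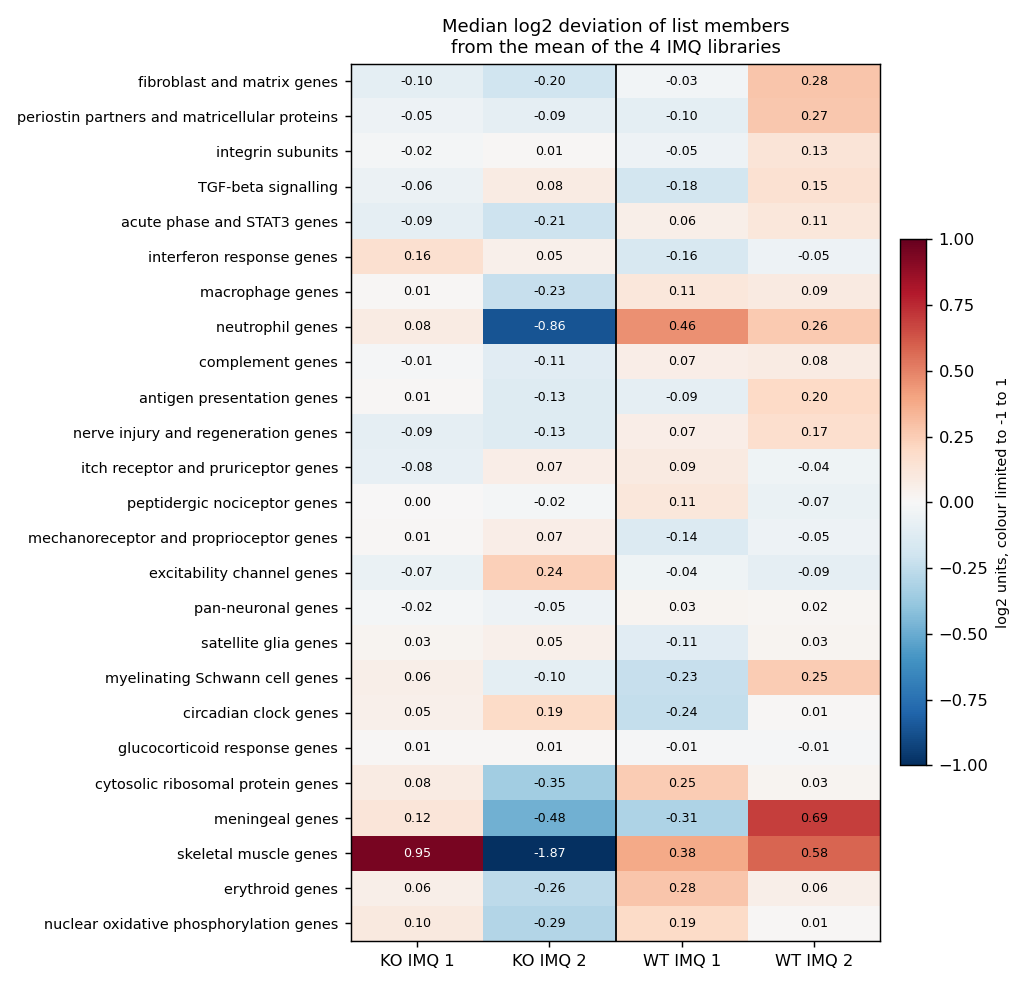
Median log2 deviation of the tested members of 25 gene lists in each library from the mean of the 4 IMQ libraries, KO IMQ libraries left of WT IMQ libraries; red is above that mean and blue below, with the colour limited at −1 and 1. KO IMQ 2 is low for skeletal muscle (−1.87) and neutrophil genes (−0.86), and WT IMQ 2 is high for meningeal (0.69) and matrix genes (0.28).

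Circadian clock genes had 5 of 19 tested members at an unadjusted p below 0.05 (26.3%), all higher in KO IMQ, and 8 lay above both WT IMQ libraries (42.1%) and 3 below (15.8%). The 4 negative members reached −0.45. Their median was 0.27, from 0.10 to 0.38 over the alternatives, the lowest being without WT IMQ 1. Per3, a period gene of the negative arm of the clock, had 20.8 and 26.8 CPM in KO IMQ against 13.3 and 15.2 CPM in WT IMQ (0.74 ± 0.25). Per2, a second gene of that arm, had 11.4 and 16.2 CPM in KO IMQ against 9.5 and 9.26 CPM in WT IMQ (0.56 ± 0.21, left-out range 0.28 to 0.79). Ciart, a clock repressor gene, had 4.12 and 5.21 CPM in KO IMQ against 2.64 and 3.34 CPM in WT IMQ (0.64 ± 0.22). In all 3 the groups stood apart and KO IMQ 2 was the highest library. The labels give no time of day for tissue collection. Glucocorticoid response genes, which follow stress and the daily hormone rhythm, had a median of 0.05 over 20 members (left-out range −0.02 to 0.06, 6 above and 5 below). Their 1 member at an unadjusted p below 0.05 was Pdk4, a kinase gene that limits glucose oxidation, with 11.6 and 11.4 CPM in KO IMQ against 8.33 and 8.38 CPM in WT IMQ (0.46 ± 0.18).

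Among genes with a named symbol, at least 1 CPM and separate groups, Hspa1b had the smallest p of those higher in KO IMQ. This inducible heat shock protein gene had 18.2 and 15.3 CPM in KO IMQ against 10.4 CPM in each WT IMQ library (0.69 ± 0.14, 95% interval 0.37 to 1.00). Its near-identical copy Hspa1a had 8.76 and 7.1 CPM in KO IMQ against 4.93 and 5.92 CPM in WT IMQ (0.55 ± 0.17). The pair shares reads and counts as a single observation. Both were higher in each KO IMQ library, while the unfolded protein and heat shock list as a whole had a median of 0.06 over 19 members (left-out range −0.12 to 0.11, 3 above and 3 below). Hypoxia and glycolysis genes had a median of −0.03 over 21 (left-out range −0.11 to −0.05), with 8 below both WT IMQ libraries (38.1%) and 1 above, and their member Slc16a3, a lactate exporter gene, had 1.33 and 1.36 CPM in KO IMQ against 2.84 and 2.64 CPM in WT IMQ (−1.02 ± 0.27). Lpl, the lipoprotein lipase gene, had 22.5 and 19.4 CPM in KO IMQ against 30.8 and 28.8 CPM in WT IMQ (−0.51 ± 0.17), within an adipocyte list whose median was 0.00 over 12 (left-out range −0.36 to 0.22, 2 above and 2 below). Acacb, the mitochondrial acetyl-CoA carboxylase gene, had 10.5 CPM in both KO IMQ libraries against 7.72 and 7.79 CPM in WT IMQ (0.44 ± 0.13). The replicates of Slc16a3 and Acacb were almost equal within each group, which their choice by a small p favours.

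Cytosolic ribosomal protein genes were lower in KO IMQ at every one of 78 tested members, with a median of −0.27, but the size went with KO IMQ 2. They summed to 15900 and 12100 CPM in KO IMQ against 18000 and 15600 CPM in WT IMQ, no member had an unadjusted p below 0.05, and 23 (29.5%) lay below both WT IMQ libraries and none above. The median was −0.07 without KO IMQ 2, −0.50 without KO IMQ 1 and −0.17 with the length offset. Rpl29, of the large subunit, had 27.8 and 128 CPM in KO IMQ against 179 and 158 CPM in WT IMQ, with KO IMQ 1 alone far below the rest. Nuclear oxidative phosphorylation genes had −0.18 over 76 members (left-out range −0.39 to 0.00, 3 above and 7 below), with 0.00 without KO IMQ 2 and −0.08 with the length offset.

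The remaining genes with the smallest p were of low or moderate level and belonged to no list. Lower in both KO IMQ libraries were Accsl, with 1.86 and 1.95 CPM in KO IMQ against 4.32 and 4.28 CPM in WT IMQ (−1.17 ± 0.25), and the tight junction protein gene Marveld3, with 1.74 and 2.13 CPM in KO IMQ against 3.61 and 3.69 CPM in WT IMQ (−0.91 ± 0.22). Steap1, of a family of metal reductases, had 3.83 and 3.02 CPM in KO IMQ against 6.45 and 5.74 CPM in WT IMQ (−0.83 ± 0.21). Anxa8, an annexin gene, had 0.29 and 0.414 CPM in KO IMQ against 0.864 and 1.64 CPM in WT IMQ (−1.80 ± 0.44). Higher in both KO IMQ libraries was Nrsn2, a vesicle membrane protein gene of neurons, with 10.3 and 8.94 CPM in KO IMQ against 4.98 and 5.86 CPM in WT IMQ (0.83 ± 0.24). Aass, an enzyme of lysine breakdown, had 3.07 and 2.66 CPM in KO IMQ against 1.52 and 1.35 CPM in WT IMQ (0.99 ± 0.28). Prom2, a protein gene of membrane protrusions, had 1.86 and 2.19 CPM in KO IMQ against 0.813 and 0.762 CPM in WT IMQ (1.35 ± 0.39). Cpeb1os1, a transcript annotated opposite Cpeb1, had a fold change of 1.20 ± 0.35, and without a known strand setting its reads cannot be told apart from those of Cpeb1. All of these separated the groups, which the choice of such genes requires, and none passed the adjusted test.

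Several genes were called only when the 4 IMQ libraries were fitted alone, which takes the spread from 2 pairs of replicates. Gm1821, annotated as a transcribed processed pseudogene, had 39.3 and 35.9 CPM in KO IMQ against 2.44 and 2.05 CPM in WT IMQ. That is a fold change of 4.06 ± 1.06, and in the 4 libraries alone its SE was 0.18 and its edgeR adjusted p 1.43e-07. A processed pseudogene copies the sequence of a parent gene, so its reads are uncertain. Myh1 and Myh2, myosin heavy chain genes of fast skeletal muscle, were called in that fit too (adjusted p = 0.00239 and 0.00483). Myh1 had 0.464 and 0.71 CPM in KO IMQ against 4.83 and 8.44 CPM in WT IMQ, and Myh2 had 0.174 and 0.178 CPM in KO IMQ against 2.39 and 2.87 CPM in WT IMQ. Skeletal muscle is not part of a ganglion. Its 15 tested genes summed to 271 and 77.2 CPM in KO IMQ against 194 and 214 CPM in WT IMQ, with 0 above and 2 below both WT IMQ libraries and a median of −0.30 that was −3.15 without KO IMQ 1 and 0.47 without KO IMQ 2.

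The vascular and bone medians turned positive without WT IMQ 2. Endothelial genes had a median of −0.11 over 15 (left-out range −0.22 to 0.03, 1 above and 2 below) and pericyte and smooth muscle genes −0.09 over 14 (left-out range −0.35 to 0.06, 0 above and 2 below). Bone marrow, cartilage and bone genes had −0.16 over 9 (left-out range −0.42 to 0.16, 0 above and 2 below). Proliferation genes had −0.10 over 21 (left-out range −0.21 to 0.03, 3 above and 3 below). Genes known to vary between laboratory mouse strains had a median of 0.07 over 15 (left-out range 0.03 to 0.05, 2 above and 1 below) with fold changes from −0.87 to 0.47. Of the 20 genes listed, 4 had low counts and 1 was not autosomal, so they were not tested. Tmem267 had the smallest p of the list, with 14.1 and 10.1 CPM in KO IMQ against 10.2 and 7.27 CPM in WT IMQ (0.47 ± 0.26, left-out range 0.21 to 0.74), and the groups overlapped. Whether the groups share a strain background was not tested, and a list median cannot tell.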

How the data were processed

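Per the labels' protocols, RNA was poly-A selected, made into strand-specific libraries with dUTP and read as pairs. The authors deposited raw read counts per Ensembl gene for the 10 ganglion libraries, whole numbers with no normalization. Tools listed per the submitters' processing notes are Bowtie2 2.2.3, TopHat2 and HISAT2 2.1.0, with GRCm39 as the build. How reads were counted, with which strand setting and annotation release, is not given in the sources used here. Symbols and chromosomes came from GENCODE M21, which matched 55227 of 55487 genes and rests on an older build, so no coordinates are given.

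Counts were filtered with filterByExpr, scaled by TMM and fitted with edgeR 4.0.16 (robust quasi-likelihood, two-sided, R 4.3.3) over the 4 ganglion groups. P-values were adjusted by Benjamini-Hochberg over all 17197 genes tested, and autosomal genes with an adjusted p below 0.05 were called. The SE is the fold change over the root of the F statistic. Alternatives were DESeq2 1.42.0, its size factors, no filter, a stricter filter, the 4 IMQ libraries alone, a replicate block, a non-robust fit, autosomal genes alone, an offset for gene length, and each of the 10 libraries left out.

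The genes compared and the 45 lists were chosen with earlier results of these data known. Named were Postn, the called genes, the 12 genes with the smallest p in each direction among named genes of at least 1 CPM whose groups did not overlap, up to 4 members of a list by p, genes called in an alternative and the neighbours of Postn. The rule was applied to all lists, but list members whose sign changed in an alternative were mostly left unnamed after their values were seen, and some other genes it reached are not reported here. The fitting code was tested on simulated data. The culture libraries were not used here.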

Additional observations from a re-analysis of the deposited data

How the results depend on the processing

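The number of autosomal genes called was 1 over all 10 ganglion libraries. It was 2 with DESeq2 and with no filter on low counts (Postn and Saa3), and 5 with the 4 IMQ libraries alone (Postn, Saa3, Gm1821, Myh1 and Myh2). It ran from 0 to 1 with a library left out, where Postn ranged from −3.41 to −2.65. A replicate block gave Postn −2.98 (adjusted p = 0.00862) and called no other gene, and the length offset gave −3.04 (0.00869). Libraries of the same number shared deviations in most pairs of groups: KO and WT vehicle correlated at 0.87, 0.827 and 0.163, KO IMQ and KO vehicle at 0.752 and 0.757, and KO IMQ and WT vehicle at 0.72 and 0.623, across 10439 genes. WT IMQ did so less, at 0.251 and 0.265 with WT vehicle, 0.154 and 0.157 with KO vehicle and 0.0567 with KO IMQ. For KO IMQ against WT IMQ the numbers were therefore not taken to pair the samples.

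Among named genes Aldh1a2 changed sign, to 0.32 without WT IMQ 2 (−1.89 to 0.32 with a library left out). Other list members that changed sign in an alternative were left out of the text for that reason, so the named genes are more stable than their lists, and no share of genes that kept their sign is given. Of the 45 list medians, 30 changed sign in some alternative and 15 did not. Of 855 medians 79 moved by more than the replicate spread, 64 of them with a library left out. The 855 include alternatives that can hardly move a fold change, such as leaving out a vehicle library, used for the spread only. Postn stayed at −2.98 without any vehicle library, with DESeq2 size factors and in the non-robust fit. The share of 79 in 855 therefore does not measure how stable the medians are. Depth of 16666489 to 19645577 counts limits genes with few counts, and 2 libraries a group limit the rest.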
